A study of Bos taurus with 6 samples.

Results

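Cortical pieces of fetal bovine ovaries were cultured for 2 days and profiled on Affymetrix bovine arrays. The insulin group (ITS+, 3 arrays) was kept in medium with insulin, described by the submitters as a factor that activates bovine follicles. The control group (TS+, 3 arrays) was kept in medium with linoleic acid, transferrin, BSA and selenous acid. The group names differ only in the letter for insulin, so these supplements are not read as a difference between the media. Per the series description, insulin pieces were enriched for primary follicles and control pieces for primordial follicles. All pieces came from fetal ovaries collected at slaughter, and the labels give no breed, fetal age or number of ovaries behind an array. Described here are 8 genes of the mitotic spindle, the kinetochore and anaphase: SPAG5, CKAP2, CENPA, SPDL1, AURKB, UBE2C, CDC20 and ESPL1. These genes and 6 lists of mitosis genes were chosen with earlier results of these data known. The 8 are the list genes that have a named row in a table of 158 probe sets. In it the authors compared insulin with control, and 90 probe sets were higher and 68 lower with insulin. The value table holds 24128 probe sets. Each of the 8 had 1 row in the authors' table, and 4 further probe sets of the value table share a cluster number with SPAG5, CKAP2, AURKB or ESPL1. Probe sets of the 8 genes under other cluster numbers were not looked for.

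In mitosis, microtubules of the spindle attach to kinetochores, the protein plates built on centromeres, and the spindle checkpoint holds division until each chromosome is attached. The anaphase-promoting complex then marks securin and cyclin B for destruction, and separase cuts the cohesin that holds sister chromatids together. Many transcripts of this machinery peak in the later part of the cell cycle. In the ovary, the oocytes of primordial follicles are arrested in meiosis, while the granulosa cells around them divide as a follicle starts to grow, and stromal and vascular cells can divide as well.

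The authors' table was chosen on the comparison of insulin with control, so the differences between these media are given for the 8 genes as a description, with no test. The pieces are a mix of cells, and a change in the number of dividing cells and a change in transcript per cell cannot be told apart. Of 32 fixed markers of oocytes, granulosa, theca, stroma, endothelium, smooth muscle, leukocytes and surface epithelium, 0 had a named row in the authors' table. The value table was not searched for them, so the cell makeup was not examined. The signals had been scaled by the authors, with array medians of 196 to 212, and replicates of a group correlated at 0.953 to 0.980 across probe sets. Nothing in the labels ties a replicate to a fetus or a culture of its own, so the spread given may be technical.

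All 8 genes had higher signals with insulin, and in each of them every insulin array lay above every control array. The same held for 12.3% of the 14410 probe sets tested, and 24.2% had no overlap in either direction. The genes were listed for this same contrast, so nothing is read from their lack of overlap. The ratios of mean signals, insulin over control, ran from 1.74 for SPDL1 to 2.64 for CKAP2, with a median of 2.42. On the log2(signal + 16) scale, which understates the change of dim probe sets, the differences ran from 0.77 to 1.34 with a median of 1.23, beside a median of -0.0011 over the 14410 probe sets tested.

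**Figure D1:**
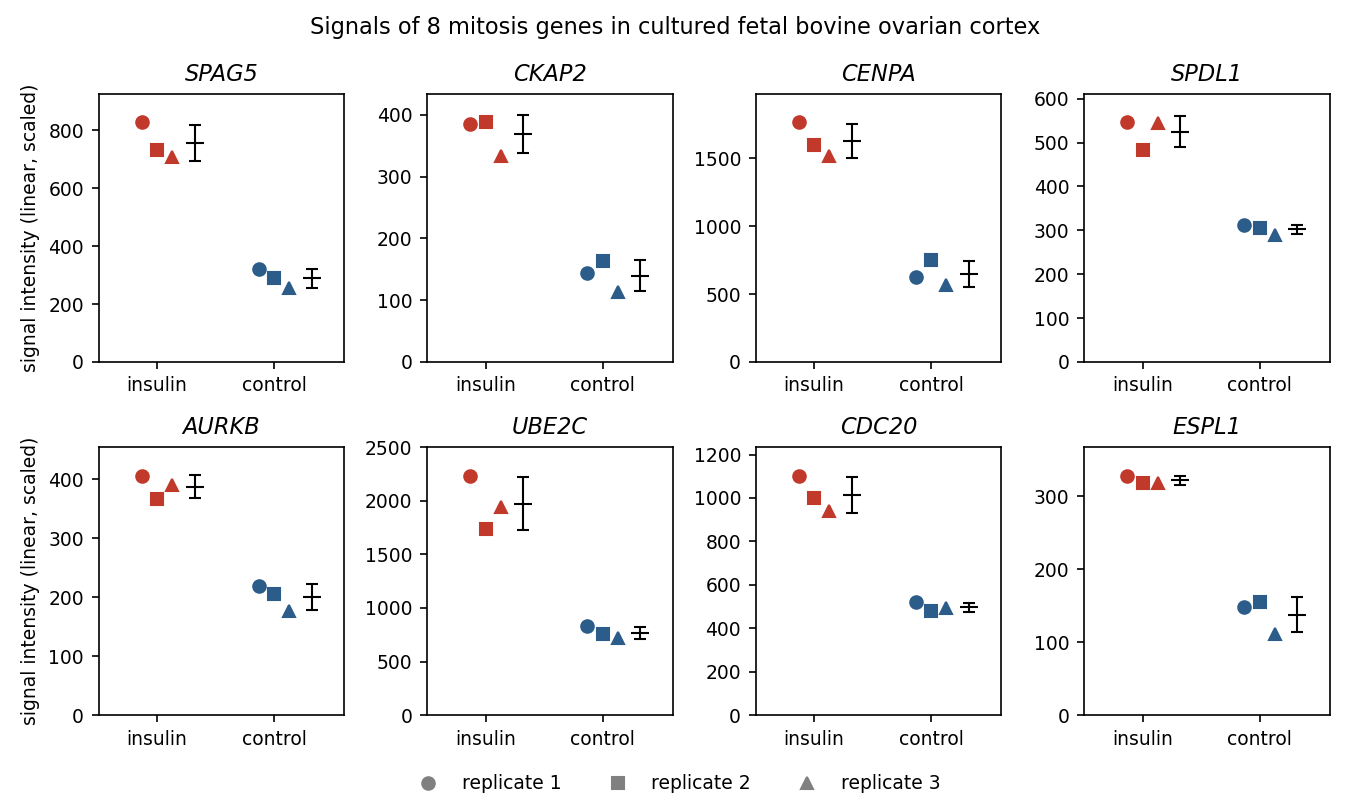
Signal intensity (linear scale from 0) of the 8 genes in each array, with insulin in red at the left and control in blue at the right of each panel. Symbols mark replicate numbers, and the bars beside them are the mean ± SD of 3 arrays. In each panel the lowest insulin array is above the highest control array.

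SPAG5 and CKAP2 are proteins of spindle microtubules. SPAG5, also called astrin, sits on spindle poles and kinetochores and helps to keep sister chromatids joined until anaphase. Its probe set (Bt.11587.3.A1_a_at) had signals of 828, 733 and 708 in insulin replicates 1 to 3, against 322, 289 and 257 in control replicates 1 to 3. The lowest insulin array was 2.20 times the highest control array. The means were 756 ± 63.2 with insulin and 289 ± 32.7 in control (SD, n = 3 each). The log2 difference was 1.34, with a limma SE of 0.13.

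The other SPAG5 probe set (Bt.11587.1.S1_at) is absent from the authors' table and was dimmer, with a mean below the filter used for the fit. It had signals of 136, 154 and 189 with insulin, against 60.5, 73.6 and 56.7 in control. The groups did not overlap here either, and the log2 difference was 1.14.

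CKAP2 stabilises microtubules of the spindle. Its probe set (Bt.16065.1.S1_at) had signals of 385, 388 and 334 with insulin, against 143, 163 and 113 in control, with means of 369 ± 30.3 and 140 ± 25.6 (SD, n = 3 each). The log2 difference was 1.32 (limma SE 0.15). Its control arrays had the widest relative spread among the 8 genes, a coefficient of variation of 18.3%, and control replicate 3 was the lowest.

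A further CKAP2 probe set (Bt.16065.2.A1_at) gave a smaller difference. Its signals were 353, 252 and 337 with insulin, against 201, 179 and 231 in control. The lowest insulin array exceeded the highest control array by a factor of only 1.09, and the log2 difference was 0.58 (limma SE 0.16). The CKAP2 probe sets therefore agreed in direction and differed in size, and which of them follows the transcript more closely was not tested.

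CENPA, SPDL1 and AURKB act at the centromere and the kinetochore. CENPA is the histone H3 variant that marks centromeres and on which the kinetochore is built. Its probe set (Bt.21523.1.S1_at) had signals of 1767, 1597 and 1522 with insulin, against 629, 752 and 564 in control. With means of 1629 ± 126 and 648 ± 95.3 (SD, n = 3 each), the log2 difference was 1.31 (limma SE 0.14).

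SPDL1, known as Spindly, brings the motor dynein to kinetochores. Its row (Bt.25837.1.S1_at) carries a gene number that the RefSeq table pairs with SPDL1, while its title names only a fly protein, so this name rests on the gene number. The signals were 546, 484 and 545 with insulin, against 311, 305 and 290 in control, or 525 ± 35.7 and 302 ± 10.7 (SD, n = 3 each). The log2 difference of 0.77 (limma SE 0.12) was the smallest of the 8, and its control arrays had the narrowest relative spread, a coefficient of variation of 3.56%.

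AURKB is the kinase of the chromosomal passenger complex, which corrects faulty attachments of microtubules and later acts in cytokinesis. The listed probe set (Bt.7331.1.S2_at) had signals of 406, 367 and 390 with insulin, against 219, 205 and 176 in control. Its means were 388 ± 19.8 and 200 ± 22.0 (SD, n = 3 each), a log2 difference of 0.91 (limma SE 0.13).

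The other AURKB probe set (Bt.7331.1.S1_at) had signals of 738, 629 and 678 with insulin, against 484, 435 and 391 in control. The groups did not overlap, and the log2 difference was 0.63 (limma SE 0.13). In both AURKB probe sets the same arrays were highest and lowest: insulin replicate 1 and insulin replicate 2 among the insulin arrays, and control replicate 1 and control replicate 3 among the controls.

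UBE2C, CDC20 and ESPL1 carry out the step from metaphase to anaphase. UBE2C is the ubiquitin-conjugating enzyme that starts ubiquitin chains for the anaphase-promoting complex. Its probe set (Bt.2725.1.S1_at) had signals of 2236, 1741 and 1946 with insulin, against 830, 760 and 719 in control. The means were 1974 ± 249 and 769 ± 56.3 (SD, n = 3 each), the log2 difference was 1.34 (limma SE 0.14), and the insulin arrays had the widest relative spread of the 8 genes, a coefficient of variation of 12.6%.

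CDC20 activates the anaphase-promoting complex and is the protein that the spindle checkpoint holds back. Its probe set (Bt.639.1.S1_at) had signals of 1103, 999 and 940 with insulin, against 519, 479 and 493 in control. With means of 1014 ± 83.0 and 497 ± 20.3 (SD, n = 3 each), the log2 difference was 1.00 (limma SE 0.12).

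ESPL1 is separase, the protease that cuts cohesin. The listed probe set (Bt.1181.1.S1_at) had signals of 329, 318 and 319 with insulin, against 148, 155 and 111 in control, or 322 ± 5.80 and 138 ± 23.8 (SD, n = 3 each). The insulin arrays were nearly equal, with a coefficient of variation of 1.80%, while control replicate 3 lay well below the other controls. The log2 difference was 1.15 (limma SE 0.14).

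The other ESPL1 probe set (Bt.1181.2.S1_at) was the one probe set of the 12 in which the groups overlapped. Its signals were 80.0, 85.2 and 92.7 with insulin, against 17.4, 18.4 and 85.7 in control. Control replicate 3, the lowest control array for the listed probe set, was here at the level of the insulin arrays. This probe set lies below the filter, and its mean log2 difference of 1.06 joins differences of 1.52 and 1.56 in pairs 1 and 2 with 0.10 in pair 3.

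**Figure D2:**
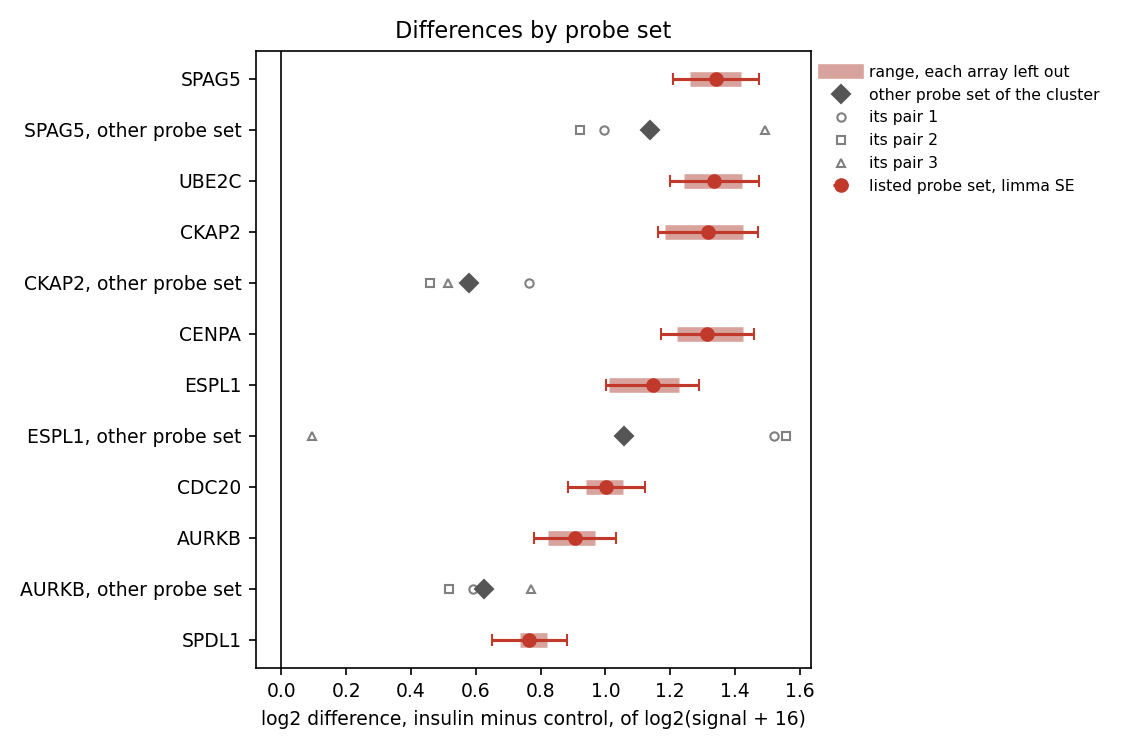
Difference of log2(signal + 16), insulin minus control, for the listed probe sets of the 8 genes (red points with limma SE, pale bars for the range when each array in turn was left out) and for the 4 probe sets that share their cluster numbers (grey diamonds, with open symbols for the difference within each replicate number). The other CKAP2 and AURKB probe sets lie at 0.58 and 0.63, below their listed partners at 1.32 and 0.91, and pair 3 of the other ESPL1 probe set lies near 0.

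SPAG5, UBE2C, CKAP2 and CENPA had almost equal differences, between 1.31 and 1.34, a gap far smaller than their SE of 0.13 to 0.15. ESPL1 and CDC20 followed at 1.15 and 1.00, then AURKB and SPDL1 at 0.91 and 0.77, and the largest gap between neighbours in this order was 0.17, between CENPA and ESPL1, whose SE were 0.14 each. The ends of the order were further apart, since the highest difference of SPDL1 within a replicate number was 0.87 and the lowest of SPAG5 was 1.30. This order holds for the listed probe sets only, as the other CKAP2 probe set, at 0.58, lay below SPDL1. Among the 14410 probe sets tested, the 8 ranked between 32 (SPAG5) and 224 (SPDL1) from the highest difference. The 99th percentile of all differences was 0.89, and 7 of the 8 lay above it. The genes were taken from a table chosen on this contrast, so nothing is read from these ranks.

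**Figure D3:**
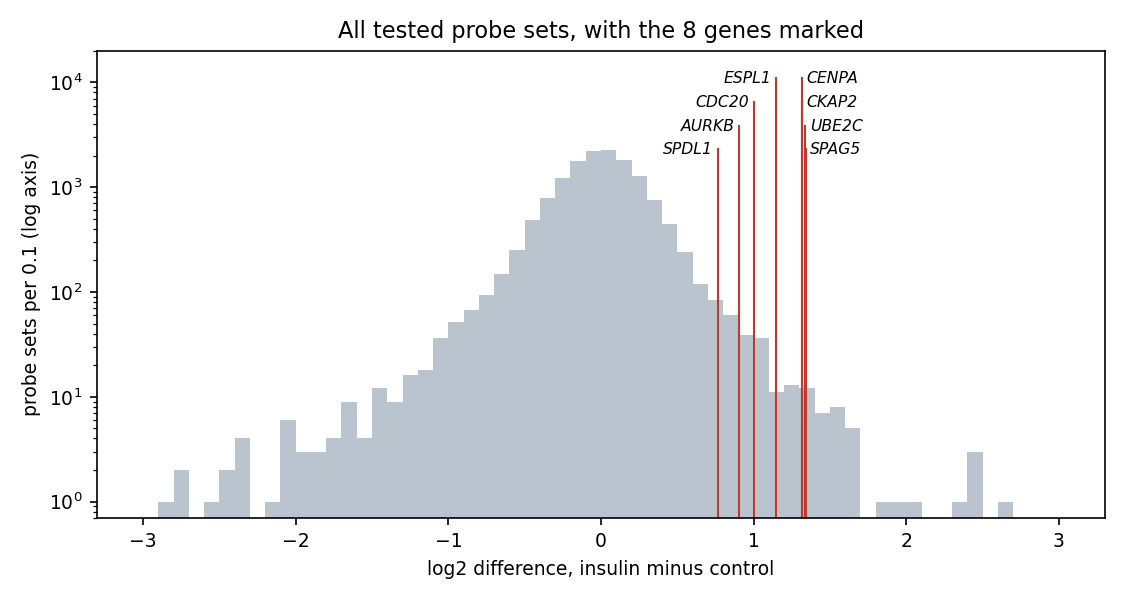
Number of probe sets (log axis) per 0.1 of the difference of log2(signal + 16), insulin minus control, over the 14410 probe sets tested, with the 8 genes as red lines. The 8 lie between 0.77 and 1.34 in the upper tail, while the median of all probe sets is -0.0011.

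In the limma fit across the 14410 probe sets, the listed probe sets of 8 of the 8 genes were past a Benjamini-Hochberg adjusted p of 0.05. Of all probe sets, 2.26% were past it in either direction and 1.18% in the higher direction (326 and 170 probe sets). The other CKAP2 and AURKB probe sets were not past it (adjusted p 0.134 and 0.0604 in this fit). The genes were listed for this same contrast, so nothing is read from these counts or from those that follow, which are of the listed probe sets. In 8 of the 8 the groups did not overlap in the higher direction, beside 12.3% of all probe sets (24.2% in either direction), and 6 of the 8 had a ratio of mean signals of at least 2, beside 0.756%. For 3 arrays against 3 the smallest exact permutation p is 0.1. With the replicate number as a block 916 probe sets passed, 6.36% of those tested (3.1% in the higher direction), and again 8 of the 8 genes.

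The number of the 8 genes that passed changed with the array left out, and each omission also leaves fewer degrees of freedom. Without control replicate 3, 0 of the 8 genes passed in limma (adjusted p 0.0542 to 0.0944, with all 8 under an unadjusted p of 0.05), and 3 probe sets passed in all. Without insulin replicate 1 or insulin replicate 2 only SPAG5 and UBE2C passed, with 30 and 40 probe sets in all. Without insulin replicate 3, CDC20, SPAG5, CKAP2, CENPA and UBE2C passed (59 in all), and without control replicate 2, ESPL1, SPAG5, CKAP2, CENPA and UBE2C did (49 in all). Without control replicate 1 all 8 passed, with 242 in all. The sizes moved little: over these omissions each gene kept its direction, with ranges such as 1.26 to 1.42 for SPAG5, 1.19 to 1.43 for CKAP2 and 0.74 to 0.82 for SPDL1.

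The order of the arrays within a group plays no part in a comparison of group means. Insulin replicate 1 was the highest insulin array in 7 of the 8 genes, all but CKAP2, where it had 385 beside 388 in insulin replicate 2. It was the highest in 35.7% of all probe sets tested. Control replicate 3 was the lowest control array in 7 of the 8, all but CDC20, beside 31.7% of all. The median deviation of the 8 genes from the group mean was 0.09 on the log2 scale in insulin replicate 1 and -0.16 in control replicate 3, where the medians over all probe sets were 0.00192 and 0.00133. In control replicate 3 all 8 genes lay below the control mean, from -0.27 in ESPL1 to -0.01 in CDC20. The further probe sets did not all share this order: insulin replicate 1 was the lowest insulin array in the other SPAG5 probe set, and control replicate 3 the highest control array in the other CKAP2 and ESPL1 probe sets. The genes share arrays, so these counts describe 1 array each and are no test.

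**Figure D4:**
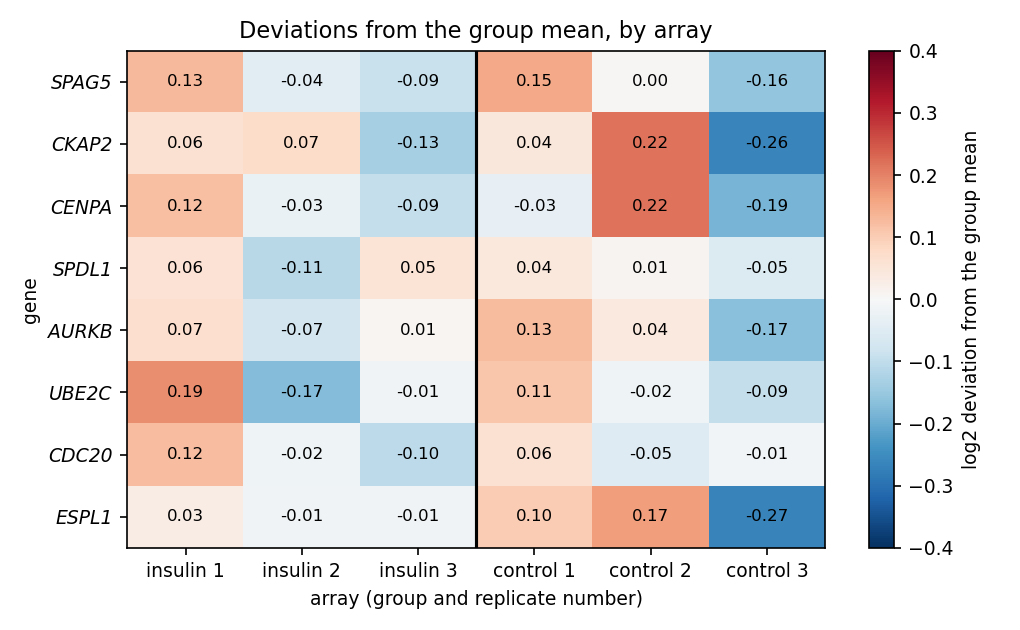
Deviation of log2(signal + 16) from the mean of its own group, for the 8 genes (rows) in the 3 insulin arrays (left) and the 3 control arrays (right). Insulin replicate 1 is above the insulin mean in all 8 genes, and control replicate 3 is below the control mean in all 8.

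Within same-numbered arrays the 8 genes had median differences, insulin minus control, of 1.20 for number 1, 1.05 for number 2 and 1.40 for number 3. Number 3 gave the largest difference in SPAG5, CKAP2, UBE2C, AURKB, ESPL1 and SPDL1, beside 31.5% of all probe sets, and number 2 the smallest in 7 of the 8, all but CDC20, beside 32.5%. Without control replicate 3 the median difference of the 8 was 1.10. The controls had the higher coefficient of variation in 5 of the 8 genes, beside 52.98% of all probe sets, with medians of 7.95% with insulin and 11.1% in control. Over all probe sets the medians were 12.24% with insulin and 13.03% in control. The genes were listed by a p-value that is smaller for a smaller spread, so nothing is read from their low values.

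All 8 genes passed the filter on dim probe sets, which lay at a signal of 122, and 8 of the 8 would have done so by their control arrays alone. In the authors' deposited table the log2 ratios of the 8 ran from 0.74 (SPDL1) to 1.32 (UBE2C), at most 0.084 away from those computed here. The p-values in the authors' deposited table, all below 0.001, were 0.000176 for CDC20, 0.000264 for SPDL1 and 0.000270 for SPAG5. CKAP2 and ESPL1 were just inside that bound in the authors' deposited table, at 0.000986 and 0.000960. The 4 other probe sets of the clusters are not in that table, and no p of the authors for them was used here.

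The 6 lists of mitosis genes were chosen with earlier results of these data known and include the 8, so nothing is read from the counts below. FAM83D and GPSM2, spindle genes named in the authors' table, are on none of the lists. Of the 130 genes in the lists, the authors' table named these 8 and no other. They were 2 of 37 centromere and kinetochore genes, 2 of 27 genes of the spindle and its motors, 3 of 20 genes of the anaphase-promoting complex and anaphase, and 1 of 20 mitotic kinases, passengers and cyclins. The lists of 8 checkpoint genes, 18 genes of condensin, cohesin and shugoshin and 16 genes of cell cycle arrest had 0 named rows. Those genes may be on the array without a name here, so their state was not examined. All named rows of the mitosis lists were higher and 0 were lower, a direction that the choice of genes fixes.

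The gene ontology text of the authors' table, which the choice of genes did not use, named cell division, mitosis or the cell cycle for none of them. It held terms for 4 of the 8 genes, and those of CENPA named chromosomes and nucleosome assembly. UBE2C was annotated to the ubiquitin cycle, AURKB to protein phosphorylation and ESPL1 to proteolysis and, as a separate term, to the nucleus. SPAG5, CKAP2, CDC20 and SPDL1 had no terms. Of all 158 rows, 63 had terms and 3 named division, the cell cycle or chromosomes, those of CENPA, CDK4 and a probe set with no gene name.

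From the list of 21 gene symbols of DNA synthesis, 4 had a named row. RRM2, a subunit of ribonucleotide reductase, which makes deoxynucleotides, had signals of 2603, 2359 and 1844 with insulin, against 815, 880 and 760 in control, a log2 difference of 1.44. KIAA0101, which binds the PCNA clamp at replication forks, had 1440 ± 53.8 and 585 ± 52.8 (SD, n = 3 each), a difference of 1.28. RRM1, the partner subunit of RRM2, and FEN1, which trims the flaps of lagging strands, had differences of 0.60 and 0.57. The difference of SPDL1 thus lay above those of RRM1 and FEN1, and those of SPAG5, UBE2C, CKAP2 and CENPA between KIAA0101 and RRM2. In all 4 genes control replicate 3 was again the lowest control array.

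Likeness to the 8 genes was measured as the root mean square difference between log2 profiles over the 6 arrays, each centred on its own mean, from the mean profile of the 8. The 8 are themselves part of that mean. ESPL1 was the nearest of them (0.071), CDC20 the next (0.107) and SPDL1 the farthest (0.201). Among the 98 other rows with a name in the authors' table, KIAA0101 was nearest (0.081). HNMT, which inactivates histamine, followed at 0.090, then BEX5, titled as an associated protein of a nerve growth factor receptor, at 0.103. INSIG1, which restrains cholesterol synthesis, lay at 0.112 and HMGCS1, an enzyme of cholesterol synthesis, at 0.116. Within the 8, CKAP2 and CENPA had the most similar profiles (0.066) and CKAP2 and SPDL1 the least similar (0.319). Of the other named rows, 3 were nearer to the mean profile than CDC20 and 20 nearer than SPDL1. This measure is governed by the size of the difference between the media.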

How the data were processed

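The deposited value table holds a linear signal intensity for each probe set on each array, already scaled by the authors. The submitters' processing notes name GCOS, with no version or settings given. The authors' deposited table of 158 probe sets gives a log2 ratio, the same ratio as a fold, a p-value and a t score, per the file headers; its test is not given in the sources used here. It also has 9 columns of single arrays, left unused, 3 of them with day 0 names, because they match no sample of the labels or show only a group.

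Members and lists were chosen with earlier results of these data known. They were named by a symbol (1), by a gene number matched to a RefSeq table of ARS-UCD2.0 (4) or by the row's title (3). The 8 genes, their cluster partners, named list genes and the 5 nearest other profiles were to be named.

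Without the 112 control probe sets and the 40% with the lowest mean of log2(signal + 16), 14410 were compared with limma (3.58.1, R 4.3.3; lmFit, eBayes, no block, Benjamini-Hochberg, threshold 0.05). Precision is limited by 3 arrays per group. Deviations from the group means correlated at 0.558, 0.313 and 0.422 between same-numbered arrays and at -0.411 to 0.13 between others, so the block is given where it moves a count. This pairing is read from the data. The fit without a block was tested on simulated data with independent noise in each array. That test left out the correlation between same-numbered arrays, so nothing about the block is read from it. Alternatives were other pseudocounts and filters, quantile normalization, a trended robust variance, the replicate block and each array left out. Figures used Python 3.11.15, pandas 2.3.3 and matplotlib 3.10.9.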

Additional observations from a re-analysis of the deposited data

How the results depend on the processing

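The differences of the 8 genes and of the further CKAP2 and AURKB probe sets kept their sign in 126 of 126 values over 13 alternatives (the further SPAG5 and ESPL1 probe sets, below the filter, entered only the unfiltered fit), and 4 moved by more than the SD between replicates, all with a pseudocount of 64. The median of the 8 genes, 1.23, was 1.02 with that pseudocount and 1.10 to 1.28 when single arrays were left out. With no filter, 2 probe sets passed in limma, 1 of them higher, and 0 of the 8 genes (adjusted p 0.0874 to 0.110, all 8 under an unadjusted p of 0.05). That fit took in the dim probe sets, 24016 in all, and why it gave fewer calls was not tested. With 60% of probe sets dropped, 5 genes passed, the other 3 being below that filter. A trended robust variance gave 542 probe sets, 286 higher, and the replicate block 916, 447 higher, each with all 8 genes. Of the further named or partner probe sets tested, the other CKAP2 and AURKB probe sets, GPSM2 and CDK4 passed with the block (adjusted p 0.0386, 0.0276, 0.0480 and 0.0382) and not without it (0.134, 0.0604, 0.0755 and 0.0522), and no call was lost. Leaving out single arrays gave 3 to 242 probe sets, 2 to 121 higher ones, and 0 to 8 of the 8 genes. The cause of the losses was not tested, and fewer arrays leave fewer degrees of freedom.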

Other observations

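Some further rows of the authors' table name genes tied to cell division that are on none of the mitosis lists, and they were chosen after their values were seen. FAM83D, a spindle protein, had means of 710 ± 19.5 with insulin and 432 ± 36.9 in control (SD, n = 3 each), a log2 difference of 0.70. GPSM2, which orients the spindle, had 997 ± 8.37 and 714 ± 12.5 (SD, n = 3 each), a difference of 0.47, and the smallest p in the authors' deposited table, 7.54e-06. A row whose title likens it to lamin B1, a protein of the nuclear envelope, had signals of 708, 632 and 617 with insulin, against 310, 258 and 334 in control, a difference of 1.08. CDK4, a kinase of the G1 phase, named from its title, had a difference of 0.57. TCF19, titled as similar to a transcription factor and picked with these rows, had a difference of 1.14. Its signals were 599, 569 and 512 with insulin, against 281, 215 and 245 in control. Control replicate 3 was the highest control array in FAM83D, the lamin B1 row and CDK4, the lowest in GPSM2, and between the other controls in TCF19.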
